A study of Drosophila melanogaster with 18 samples.

Results

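The genes described here encode the presynaptic release machinery of Drosophila neurons, and they were chosen by name: the active zone proteins brp, Rim, Rbp and unc-13, the SNARE proteins nSyb, Syx1A and Snap25, and the vesicle and fusion proteins Syt1, cpx and Syn. Of these 10 genes, 8 had a probe set under their current or platform symbol, giving 15 of the 18769 probe sets tested. No probe set carried the symbol of Syt1 or Syx1A alone, so these genes have no value here. A probe set is a group of short array probes designed to 1 transcript or transcript group, and each was kept apart. For each gene, the probe set with the highest mean over all arrays is called its main probe set, giving 8 main probe sets.

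Transcripts were measured in the complete larval central nervous system (CNS), in 6 genotypes with 3 arrays each, 18 arrays in all. In the TFAM overexpression genotype (TFAM o/e), nsybGal4 drove UAS-TFAM3M, which encodes the mitochondrial DNA binding protein TFAM. The Pnt RNAi genotype carried nsybGal4 with UAS-Pnt RNAi JF02227, against the ETS transcription factor Pointed, and the Aop RNAi genotype carried nsybGal4 with UAS-Aop RNAi 3166R1, against the ETS factor Anterior open. In the combined genotypes, written TFAM o/e with Pnt RNAi or with Aop RNAi, nsybGal4 drove UAS-TFAM3M together with that same RNAi transgene. The control was nsybGal4/+. All 6 genotypes thus carried the nsybGal4 driver, which takes its name and its neuronal expression from nSyb, 1 of the genes described, and none was free of it. The larvae were wandering, at the last larval stage, and were raised on standard food, and each array held RNA pooled from 20 larvae. The transgenes acted in neurons, whereas the RNA came from the whole CNS with its glia and neuroblasts. Nothing in the labels says that the 3 samples of a genotype came from separate cultures, so the p-values measure only the spread between these samples, which may be technical.

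At the active zone, a scaffold built around Bruchpilot, Rim and Rim-binding protein holds calcium channels close to docked vesicles, and Unc-13 primes those vesicles for release. Fusion is driven by the SNARE complex, in which synaptobrevin on the vesicle zips together with syntaxin and SNAP-25 on the plasma membrane, under the control of the calcium sensor synaptotagmin and of complexin. Synapsin holds reserve vesicles in clusters behind the active zone. In larval flies these proteins are studied mostly at the neuromuscular junction, whose motor neuron cell bodies lie in the dissected CNS. The design asks whether neuronal mitochondrial dysfunction from TFAM o/e, knock-down of either ETS factor, or their combination altered the transcripts of this machinery.

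Values are the log2 MAS5 signals deposited by the authors, and signals of different probe sets cannot be set against each other as transcript levels. The arrays had similar medians, between 5.03 and 5.56 on the log2 scale, and between 46.4% and 49.7% of probe sets lay under a log2 signal of 5 on each. The probe set of elav, a pan-neuronal RNA-binding protein, averaged between 11.85 and 12.09 in the 6 genotypes. The TFAM probe set averaged 12.08 ± 0.04 in TFAM o/e arrays, 12.15 ± 0.38 in TFAM o/e with Pnt RNAi arrays and 12.10 ± 0.08 in TFAM o/e with Aop RNAi arrays, against 10.58 ± 0.15 in control arrays (SD, n = 3 each). The aop probe set averaged 10.70 ± 0.19 in arrays labelled Aop RNAi and 10.68 ± 0.05 in control arrays. The pnt probe set, named through the study's own gene table, averaged 9.49 ± 0.16 in arrays labelled Pnt RNAi and 8.44 ± 0.42 in control arrays. It was thus higher, not lower, under that label, and the array values do not show either knock-down. In eye discs, the study reports nearly complete loss of Aop and PntP2 protein with these RNAi lines. That is protein in another tissue, which these whole CNS RNA values do not measure. Control replicate 3 stood apart from the other arrays. A list of 17 testis genes averaged 6.83 on it, against 4.40 and 4.12 on the other control arrays and at most 5.26 on any other array. A list of 5 ring gland probe sets averaged 6.53 on it, against at least 8.27 on every other array.

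No presynaptic probe set passed the test in any comparison. With limma and Benjamini-Hochberg adjustment over all 18769 probe sets, 0 of 15 were called at an adjusted p under 0.05 in each of 12 comparisons, which made 180 tests with a lowest adjusted p of 0.537. Of all probe sets, 0.181% were called for TFAM o/e against control, 0.293% for Pnt RNAi against control and 0.176% for Aop RNAi against control. For TFAM o/e with Pnt RNAi the share was 0.325%, and for TFAM o/e with Aop RNAi it was 0.229%, each against control. A count of 0 of 15 lies near these backgrounds. At an unadjusted limma p under 0.05, 6 of the 180 tests passed, where 3.41% to 8.49% of all probe sets passed in each of the 12 comparisons, and the unpaired test of the study's methods, after the same adjustment, called 0 in its 135 tests. In bulk CNS, fewer neurons and less transcript per neuron cannot be told apart, for these or any other values given here.

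**Figure D1:**
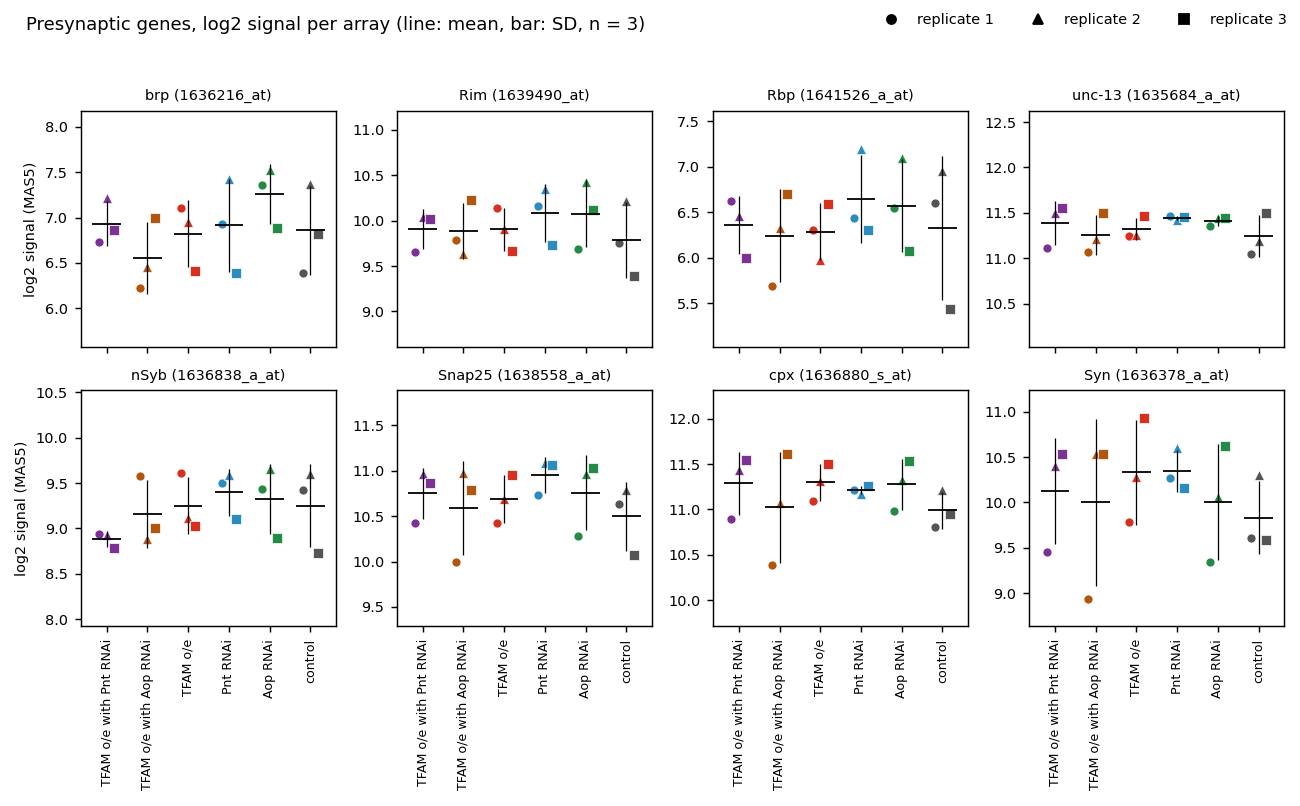
Log2 MAS5 signal (vertical axis, each panel spanning the same range) of the main probe set of 8 presynaptic genes in each genotype (horizontal axis). Points are single arrays, with the symbol giving the replicate number, horizontal lines are means and vertical lines are SDs (n = 3 arrays). The arrays of the 6 genotypes overlapped in every pair except for nSyb, where the TFAM o/e with Pnt RNAi arrays, between 8.78 and 8.94, lay under all TFAM o/e and all Pnt RNAi arrays.

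brp encodes Bruchpilot, the scaffold that forms the electron-dense T-bar of the fly active zone. Its main probe set, 1636216_at, read 6.73, 7.21 and 6.86 in TFAM o/e with Pnt RNAi arrays and 6.22, 6.46 and 6.99 in TFAM o/e with Aop RNAi arrays. It read 6.93, 7.42 and 6.39 in Pnt RNAi arrays and 7.36, 7.52 and 6.89 in Aop RNAi arrays. In TFAM o/e arrays it read 7.11, 6.95 and 6.41, against 6.39, 7.37 and 6.82 in control arrays. Every genotype overlapped every other. The log2 fold change of TFAM o/e over control was -0.04, with a 95% interval of -0.69 to 0.62 (limma, adjusted p = 1.00). The 5 intervals of brp against control lay between -0.96 and 1.05. The second bright brp probe set, 1625489_at, spanned 5.77 to 7.73, and its lowest value was on control replicate 3. Both other brp probe sets were dim. 1629132_at lay under a log2 signal of 5 on 14 of 18 arrays, and 1632538_at on all 18, at 0 on 1 of them. The dim 1629132_at read 3.35, 4.39 and 4.37 in TFAM o/e arrays, against 4.79, 4.59 and 4.47 in control arrays, and was the 1 presynaptic probe set whose TFAM o/e arrays did not overlap the control. Of all probe sets, 8.86% did not overlap in that comparison, and its difference of -0.58 was within the error (SE 0.50, limma adjusted p = 1.00).

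Rim encodes the Rab3-interacting molecule, which links vesicles and calcium channels at the release site. Its main probe set, 1639490_at, read 9.65, 10.04 and 10.02 in TFAM o/e with Pnt RNAi arrays and 9.79, 9.63 and 10.23 in TFAM o/e with Aop RNAi arrays. It read 10.16, 10.35 and 9.73 in Pnt RNAi arrays and 9.69, 10.42 and 10.12 in Aop RNAi arrays. TFAM o/e arrays read 10.14, 9.91 and 9.66, against 9.75, 10.22 and 9.39 in control arrays. All genotypes overlapped, and TFAM o/e differed from control by 0.12 (95% interval -0.37 to 0.60).

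A dimmer Rim probe set, 1623169_at, gave the smallest p among all presynaptic tests. It read 7.0, 6.84 and 6.83 in Aop RNAi arrays, against 6.0, 6.32 and 5.60 in control arrays. It read 5.76, 6.09 and 6.31 in TFAM o/e with Aop RNAi arrays, 6.76, 6.12 and 6.28 in TFAM o/e with Pnt RNAi arrays, 6.58, 5.97 and 5.90 in TFAM o/e arrays and 6.16, 6.46 and 5.53 in Pnt RNAi arrays. The Aop RNAi arrays lay above all arrays of the other 5 genotypes. The share of all probe sets with 1 genotype so separated was not computed, and this probe set is described for its small p. The log2 fold change of Aop RNAi over control was 0.92 (SE 0.30, limma unadjusted p = 0.00715), which did not pass the adjustment over all probe sets (adjusted p = 0.537), and over the alternatives the adjusted p ran from 0.304, without control replicate 2, to 1.00. Without control replicate 3 the difference was 0.73 (unadjusted p = 0.0353, adjusted p = 1.00). In Aop RNAi against control, 2 of 15 presynaptic probe sets had an unadjusted p under 0.05, against 5.73% of all probe sets, and 1 of 15 did not overlap, against 8.59%. The main Rim probe set did not show the same separation, at 0.29 (SE 0.23, adjusted p = 0.957), and the last Rim probe set, 1638777_at, lay under a log2 signal of 5 on 6 of 18 arrays and spanned 2.89 to 5.96.

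Rbp encodes Rim-binding protein, which couples the scaffold to calcium channels. Its main probe set, 1641526_a_at, read 6.62, 6.46 and 6.0 in TFAM o/e with Pnt RNAi arrays and 5.69, 6.33 and 6.70 in TFAM o/e with Aop RNAi arrays. It read 6.44, 7.20 and 6.30 in Pnt RNAi arrays and 6.55, 7.10 and 6.07 in Aop RNAi arrays. In TFAM o/e arrays it read 6.30, 5.97 and 6.59, against 6.60, 6.95 and 5.43 in control arrays. The control arrays alone spanned more than the differences between genotypes, with control replicate 3 the lowest array of all. TFAM o/e differed from control by -0.04 (95% interval -0.86 to 0.78). The dim Rbp probe set, 1626872_at, lay under a log2 signal of 5 on all 18 arrays and had the smallest p for TFAM o/e against control, at -1.30 (SE 0.87, limma unadjusted p = 0.154, adjusted p = 0.978).

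unc-13 encodes the vesicle priming factor and was the most evenly measured of these genes. Its 1 probe set, 1635684_a_at, read 11.11, 11.50 and 11.55 in TFAM o/e with Pnt RNAi arrays and 11.07, 11.21 and 11.50 in TFAM o/e with Aop RNAi arrays. It read 11.46, 11.42 and 11.45 in Pnt RNAi arrays and 11.35, 11.44 and 11.44 in Aop RNAi arrays. The TFAM o/e values were 11.24, 11.26 and 11.46, against 11.05, 11.19 and 11.50 in control arrays. The pooled SD within genotypes was 0.17, the lowest among the main probe sets, and the genotype means spanned 0.20. The intervals for the 5 genotypes against control therefore reached no further than -0.30 and 0.51 on the log2 scale.

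nSyb encodes neuronal synaptobrevin, the SNARE of the vesicle membrane. Its 1 probe set, 1636838_a_at, read 8.94, 8.93 and 8.78 in TFAM o/e with Pnt RNAi arrays and 9.58, 8.88 and 9.01 in TFAM o/e with Aop RNAi arrays. It read 9.50, 9.59 and 9.10 in Pnt RNAi arrays and 9.43, 9.65 and 8.90 in Aop RNAi arrays. Under TFAM o/e alone it read 9.61, 9.11 and 9.03, against 9.42, 9.60 and 8.73 in control arrays. The TFAM o/e with Pnt RNAi arrays were the lowest genotype on average, under every TFAM o/e and every Pnt RNAi array but overlapping the control. Groups that did not overlap made up 9.53% of all probe sets against TFAM o/e and 14.5% against Pnt RNAi. Control replicate 3 was the lowest array of all. The means of TFAM o/e and control were both 9.25. The log2 fold change of TFAM o/e with Pnt RNAi was -0.51 over Pnt RNAi (SE 0.24, limma unadjusted p = 0.0489, adjusted p = 0.785), -0.37 over TFAM o/e (SE 0.24, adjusted p = 1.00) and -0.37 over control (SE 0.24, adjusted p = 0.755). Without control replicate 3 the difference from control was -0.63 (unadjusted p = 0.0175, adjusted p = 0.485).

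Snap25 encodes the SNAP-25 SNARE of the plasma membrane. Its 1 probe set, 1638558_a_at, read 10.43, 10.96 and 10.86 in TFAM o/e with Pnt RNAi arrays and 10.00, 10.98 and 10.79 in TFAM o/e with Aop RNAi arrays. It read 10.73, 11.08 and 11.06 in Pnt RNAi arrays and 10.28, 10.96 and 11.03 in Aop RNAi arrays. Arrays of TFAM o/e read 10.42, 10.69 and 10.95, against 10.63, 10.79 and 10.07 in control arrays. The Pnt RNAi mean was the highest and the control mean the lowest, but their arrays overlapped. The log2 fold change of Pnt RNAi over control, 0.46 (SE 0.26, limma unadjusted p = 0.0885, adjusted p = 0.746), was the presynaptic difference with the smallest p in that comparison. Next came the second bright brp probe set at 0.66 (SE 0.40, adjusted p = 0.775) and unc-13 at 0.20 (SE 0.15, adjusted p = 0.813). Without control replicate 3 this ranking changed. Snap25 was then at 0.25 (limma unadjusted p = 0.371) and that brp probe set at 0.24 (unadjusted p = 0.538). The smallest p-values were those of cpx 1639609_s_at, at -0.44 (unadjusted p = 0.0453), and unc-13, at 0.32 (unadjusted p = 0.0466), both with an adjusted p of 0.951.

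cpx encodes complexin, which clamps spontaneous fusion and promotes evoked fusion. Its main probe set, 1636880_s_at, read 10.89, 11.43 and 11.54 in TFAM o/e with Pnt RNAi arrays and 10.39, 11.07 and 11.61 in TFAM o/e with Aop RNAi arrays. It read 11.22, 11.17 and 11.26 in Pnt RNAi arrays and 10.98, 11.32 and 11.53 in Aop RNAi arrays. With TFAM o/e alone the values were 11.09, 11.31 and 11.50, against 10.81, 11.21 and 10.95 in control arrays. TFAM o/e was 0.31 higher than control (SE 0.24, 95% interval -0.19 to 0.81, limma adjusted p = 0.996), and the groups overlapped. The other cpx probe set, 1639609_s_at, read 10.53, 11.13 and 10.41 in Aop RNAi arrays, against 10.63, 10.51 and 8.93 in control arrays. Its log2 fold change was 0.67 (SE 0.31, limma unadjusted p = 0.0469, adjusted p = 0.861). Without control replicate 3 it was 0.12 (SE 0.20, adjusted p = 1.00), so that 1 array carried most of the difference.

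Syn encodes synapsin, the phosphoprotein that holds reserve vesicles together. Its 1 probe set, 1636378_a_at, read 9.46, 10.40 and 10.53 in TFAM o/e with Pnt RNAi arrays and 8.94, 10.53 and 10.53 in TFAM o/e with Aop RNAi arrays. It read 10.27, 10.60 and 10.16 in Pnt RNAi arrays and 9.34, 10.06 and 10.62 in Aop RNAi arrays. In TFAM o/e arrays it read 9.78, 10.28 and 10.93, against 9.61, 10.30 and 9.59 in control arrays. Syn was the most variable of the main probe sets, with a pooled SD within genotypes of 0.60 and genotype means that spanned 0.51. TFAM o/e was 0.50 higher than control, with a 95% interval of -0.36 to 1.35 (limma adjusted p = 1.00).

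Ordered by genotype mean, 6 of the 8 main probe sets were highest in Pnt RNAi, 1 in Aop RNAi and 1 in TFAM o/e. Lowest were 5 in control, 2 in TFAM o/e with Aop RNAi and 1 in TFAM o/e with Pnt RNAi. The same counts over all probe sets were not made. Without control replicate 3, TFAM o/e with Aop RNAi lay under control for the main Rim probe set (-0.10) and Snap25 (-0.12). Control was then no longer the lowest for either. For all 8, neighbours in that order differed by less than the pooled SD within genotypes, as they did for 14 of the 15 probe sets. The exception was Rim 1623169_at, whose largest gap of 0.50, between Aop RNAi and the next genotype, exceeded its SD of 0.34. These gaps lie between means, which vary less than the single arrays that the SD describes. A gap under the SD therefore cannot show that genotypes were alike. The share of all probe sets with a gap above their SD was not computed, so the exception has no background to be set against. Gaps between neighbours also do not measure the full range of genotype means. Among main probe sets, range and SD were 0.70 and 0.40 for brp, 0.51 and 0.33 for nSyb, and 0.46 and 0.36 for Snap25. They were 0.20 and 0.17 for unc-13, 0.29 and 0.32 for Rim, and 0.41 and 0.52 for Rbp. For cpx they were 0.31 and 0.33, and for Syn 0.51 and 0.60. Because the SD is that of single arrays, a range of means above it is no sign that genotypes differ. Over the 12 comparisons, 72 of the 96 intervals of the main probe sets lay within a log2 change of 1 in either direction.

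**Figure D2:**
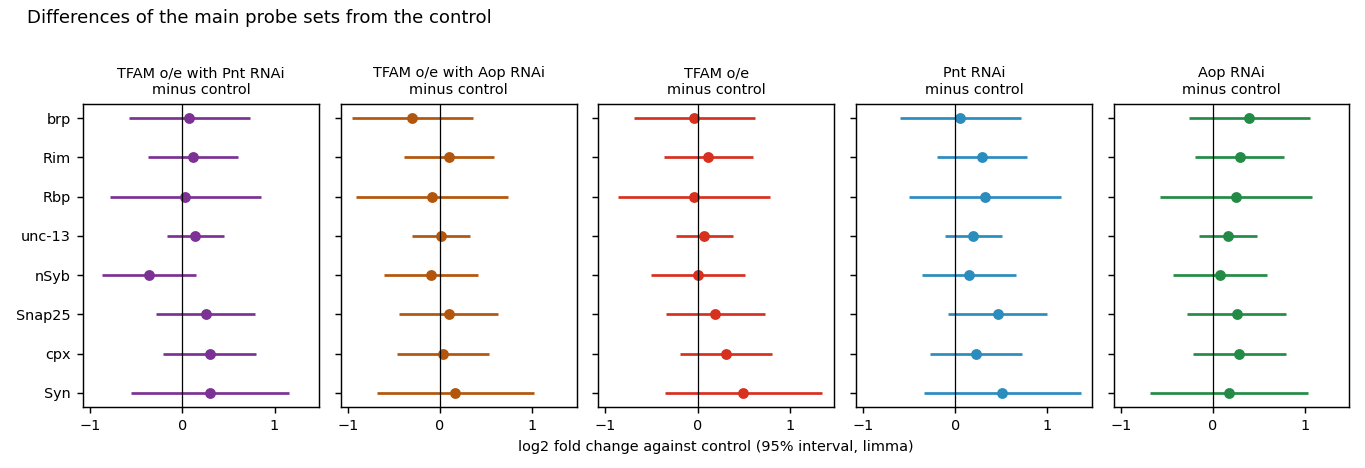
Log2 fold change against control (horizontal axis) of the main probe set of each presynaptic gene (vertical axis), with 1 panel per genotype. Points are limma estimates and lines their 95% intervals (n = 3 arrays a genotype). All 40 intervals include 0, and the narrowest are those of unc-13, whose SE was 0.15.

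Against control, the presynaptic probe sets leaned slightly upward. Their median log2 fold change over 15 probe sets was 0.12 in TFAM o/e, 0.20 in Pnt RNAi, 0.29 in Aop RNAi, 0.12 when TFAM o/e was combined with Pnt RNAi and 0.01 when it was combined with Aop RNAi. Above 0 were 10 of 15 in TFAM o/e (45.3% of all probe sets), 12 in Pnt RNAi (48.5%) and 14 in Aop RNAi (51.8%). The combined genotypes had 12 above 0 with Pnt RNAi (48.8%) and 8 with Aop RNAi (47.1%). These comparisons share the same 3 control arrays. The probe sets of smallest p in TFAM o/e with Pnt RNAi, after nSyb, were Rim 1623169_at at 0.41 (SE 0.30, limma adjusted p = 0.784) and the main cpx probe set at 0.30 (SE 0.24, adjusted p = 0.815). Those in TFAM o/e with Aop RNAi were cpx 1639609_s_at at 0.46 (SE 0.31, limma adjusted p = 0.958), the dim Rbp 1626872_at at -0.88 (SE 0.87, adjusted p = 0.996) and the main brp probe set at -0.30 (SE 0.31, adjusted p = 0.998). Medians over all 18769 probe sets were -0.03, -0.01, 0.02, -0.01 and -0.02 in the same order of genotypes, and between -0.03 and 0.02 in the other comparisons. General neuronal genes had medians of 0.02, 0.07, 0.10, -0.06 and -0.05, also in that order. The lists of other presynaptic genes, described below, also had mostly positive medians. In that order they were 0.08, 0.13, 0.09, 0.03 and -0.02 for other active zone genes. Other SNARE and fusion genes had 0.20, 0.14, 0.17, 0.20 and 0.10, and other vesicle and endocytosis genes -0.01, 0.23, 0.13, 0.115 and 0.03.

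This lean moved with the control arrays, and without control replicate 3 it turned under 0 for TFAM o/e and both combined genotypes. Control replicate 3 was the lowest of the 18 arrays for 6 of 15 presynaptic probe sets, and for 5 of the 11 with a mean log2 signal of at least 6, where it was lowest for 23.5% of all 8582 probe sets of that brightness. Without it, the medians in that order of genotypes were -0.08, 0.10, 0.09, -0.08 and -0.11, and the numbers above 0 were 4, 9, 10, 7 and 3 of 15. Without control replicate 2, which had the highest presynaptic mean of the control arrays, the medians were 0.34, 0.35, 0.51, 0.35 and 0.23. The part of the testis and ring gland transcripts of control replicate 3 in these differences was not tested.

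**Figure D3:**
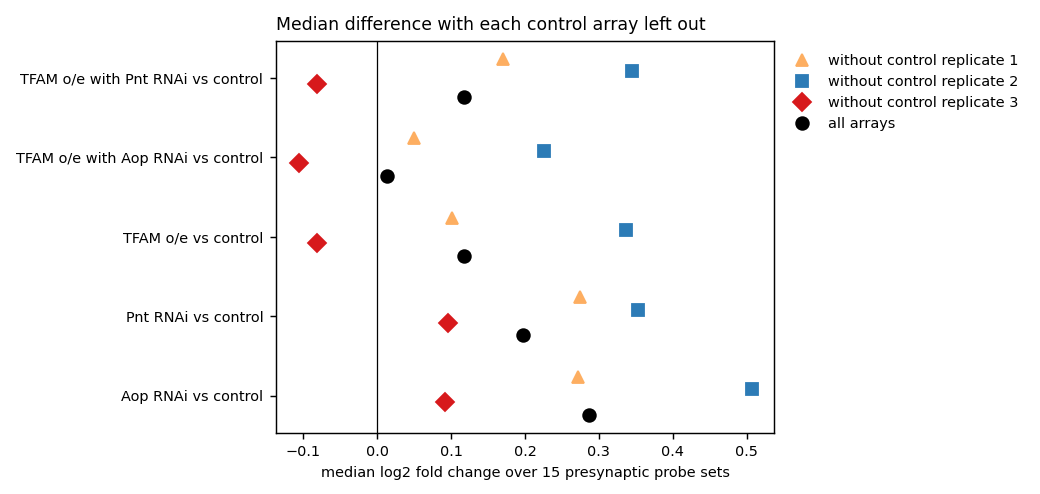
Median log2 fold change over the 15 presynaptic probe sets against control (horizontal axis) in each of 5 genotypes (vertical axis), with all arrays (circles) and with each control array left out in turn (other symbols). The red diamonds, without control replicate 3, lie between -0.11 and 0.10, and the blue squares, without control replicate 2, between 0.23 and 0.51.

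Each combined genotype was also set against its single genotypes, which asks whether the RNAi altered these transcripts when TFAM was overexpressed, and whether TFAM o/e altered them when an ETS factor was targeted. Of 15 presynaptic probe sets, 0 were called by limma in TFAM o/e with Pnt RNAi against TFAM o/e (0.16% of all probe sets) and 0 in TFAM o/e with Aop RNAi against TFAM o/e (0.0959%). Likewise 0 were called in TFAM o/e with Pnt RNAi against Pnt RNAi (0.139%) and 0 in TFAM o/e with Aop RNAi against Aop RNAi (0.208%). At an unadjusted limma p under 0.05 the counts were 0 (4.6% of all), 0 (3.41%), 1 (6.26%) and 2 (4.42%) in the same order. Against TFAM o/e alone, 8 of 15 were above 0 with Pnt RNAi added (51.2% of all) and 4 with Aop RNAi added (51.7%). The smallest p-values against TFAM o/e were those of nSyb, given above, for TFAM o/e with Pnt RNAi, and of the dim Rim 1638777_at for TFAM o/e with Aop RNAi, at -0.85 (SE 0.69, adjusted p = 1.00).

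With Aop RNAi in both groups, the log2 fold change of TFAM o/e with Aop RNAi over Aop RNAi was above 0 for 1 of 15 presynaptic probe sets, against 44.8% of all probe sets. It was under 0 for the other 14, with a median of -0.21. Of other neural lists in this comparison, 1 of 13 probe sets were above 0 for the general neuronal genes, 1 of 9 for the neuroblast genes and 3 of 8 for the glia genes. The counts were 4 of 23 for the other active zone genes, 4 of 14 for the other SNARE and fusion genes and 7 of 24 for the other vesicle and endocytosis genes. The lowest p belonged to Rim 1623169_at, at -0.84 (SE 0.30, limma unadjusted p = 0.0127, adjusted p = 0.819), and its arrays did not overlap, as in 8.22% of all probe sets. It was followed by the main brp probe set, whose TFAM o/e with Aop RNAi mean was 6.56 ± 0.39, against 7.26 ± 0.33 in Aop RNAi arrays (SD, n = 3 each), a difference of -0.70 (SE 0.31, limma unadjusted p = 0.0381, adjusted p = 1.00) between arrays that overlapped. Leaving out single arrays moved the median between -0.39 and -0.07. TFAM o/e with Aop RNAi replicate 1 was the lowest of all arrays for 4 of the 11 brighter presynaptic probe sets, against 9.61% of all probe sets of that brightness, and Aop RNAi replicate 2 the highest for 4, against 9.23%.

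With Pnt RNAi in both groups, 6 of 15 were above 0 (48.9% of all probe sets), and the median was -0.18. Besides nSyb, the smallest p-values were those of brp 1625489_at at -0.64 (SE 0.40, limma adjusted p = 0.839) and Rim 1623169_at at 0.34 (SE 0.30, adjusted p = 0.879). Averaged over the 3 backgrounds (control, Pnt RNAi and Aop RNAi), TFAM o/e gave a median of -0.11 with 3 of 15 above 0 (45% of all probe sets), and 0 of 15 were called (0.543% of all). This median was -0.23 without Pnt RNAi replicate 3 and -0.04 without Pnt RNAi replicate 2, the lowest and highest values with 1 array left out. nSyb had the smallest p there, at -0.23 (SE 0.14, adjusted p = 0.774), ahead of the main brp probe set at -0.24 (SE 0.18, adjusted p = 0.838). Without control replicate 3, nSyb was at -0.31 (limma unadjusted p = 0.0251, adjusted p = 0.445).

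The difference between the TFAM o/e effect with and without each RNAi was tested as an interaction, and 0 of 15 were called with Pnt RNAi (0.0266% of all probe sets) and 0 with Aop RNAi (0.0533%). For Aop RNAi, Rim 1623169_at was at -1.01 (SE 0.43, limma unadjusted p = 0.0292, adjusted p = 1.00), the 1 presynaptic probe set with an unadjusted p under 0.05, against 3.99% of all. For Pnt RNAi, nSyb had the smallest p, at -0.51 (SE 0.34, unadjusted p = 0.153, adjusted p = 0.959). With Pnt RNAi 4 of 15 were above 0 (51.3% of all) and with Aop RNAi 2 of 15 (49.8%). Without control replicate 3 these counts were 7 and 6 of 15. The Rim 1623169_at interaction with Aop RNAi was then -0.83 (limma unadjusted p = 0.0704), and 0 of 15 had an unadjusted p under 0.05. The median over the 15 was -0.25 for the Pnt RNAi interaction (-0.10 without control replicate 3), against -0.36 for that with Aop RNAi (-0.14 without control replicate 3).

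**Figure D4:**
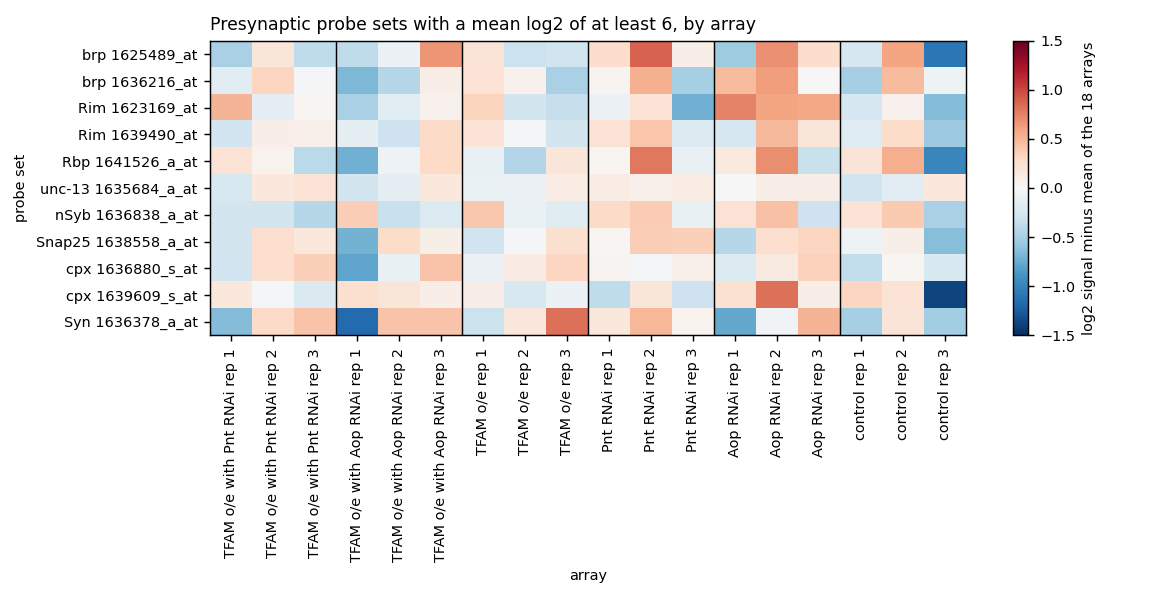
Deviation of each presynaptic probe set with a mean log2 signal of at least 6 (rows) from its mean over 18 arrays, for every array (columns, by genotype and replicate), in log2 units given by the colour scale. Control replicate 3 is the lowest column for 5 of 11 probe sets and TFAM o/e with Aop RNAi replicate 1 for 4, while no genotype is of 1 colour throughout.

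Arrays of the same replicate number resembled each other across genotypes for several of these genes. Replicate 1 was the lowest of the 3 arrays in 5 of 6 genotypes for unc-13, Snap25 and the main cpx probe set, and in 4 for Syn. Replicate 3 was the lowest in 5 of 6 genotypes for nSyb, and in 4 for Rim 1623169_at, the main Rbp probe set and cpx 1639609_s_at. Of all probe sets with a mean log2 signal of at least 6, 21% had replicate 1 lowest in at least 4 genotypes, and 21% had replicate 3. The labels do not say that a replicate number marks a shared day or batch, and these values cannot tell whether it does.

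Other genes of the presynaptic pathway were read in the same way. They made up 3 lists: other active zone genes (12 genes, 23 probe sets), other SNARE and fusion genes (12 genes, 14 probe sets) and other vesicle and endocytosis genes (15 genes, 24 probe sets). Of these 61 probe sets, 0 were called higher or lower by limma in any of the 12 comparisons, with a lowest adjusted p of 0.206. Median log2 fold changes for TFAM o/e over control were 0.08, 0.20 and -0.01 in the 3 lists, beside 0.12 for the genes above.

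The smallest p-values in these lists belonged to Syt7, Vmat and Synj. Syt7, of the synaptotagmin family of calcium sensors, read 11.64, 11.91 and 11.90 in TFAM o/e arrays, against 11.12, 11.00 and 11.55 in control arrays. These groups did not overlap, as was so for 8.86% of all probe sets, and the log2 fold change was 0.59 (SE 0.15, limma unadjusted p = 0.00113, adjusted p = 0.255). The other genotypes lay close to TFAM o/e, with means of 11.73 ± 0.07 in Pnt RNAi, 11.71 ± 0.03 in Aop RNAi, 11.71 ± 0.10 in TFAM o/e with Pnt RNAi and 11.72 ± 0.27 in TFAM o/e with Aop RNAi, against 11.22 ± 0.29 in control (SD, n = 3 each), so the control mean was the lowest of the 6. Vmat, the vesicular monoamine transporter, read 9.65, 9.76 and 9.24 in Pnt RNAi arrays, against 8.89, 9.22 and 8.23 in control arrays. Here too the groups did not overlap, as was so for 13.2% of all probe sets, and the log2 fold change of this probe set, 1636275_a_at, was 0.77 (SE 0.20, limma adjusted p = 0.206). The lowest control value of 1636275_a_at, 8.23, was on control replicate 3, and its part in this difference was not tested. This was not the brightest Vmat probe set. Its mean log2 signal was 9.04, against 10.49 for 1637393_at, which was not among those with the smallest p. A dim Vmat probe set, 1632856_s_at, was at -1.99 in TFAM o/e with Pnt RNAi against control (SE 0.58, limma adjusted p = 0.269). Synj, the lipid phosphatase synaptojanin that acts in vesicle uncoating, was at -0.32 for TFAM o/e averaged over the 3 backgrounds (SE 0.09, limma adjusted p = 0.243). Its control arrays read 11.46, 11.71 and 12.08, the highest on control replicate 3, and the part of that array in this difference was not tested.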

How the data were processed

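The authors dissected the CNS, amplified 10 ng of RNA with the NuGEN Ovation protocol and hybridised Affymetrix Drosophila arrays. The deposited values are MAS5 signals on the log2 scale, made by the authors in the Transcriptome Analysis Console, with 1 value per probe set and array; the build and annotation release are not given in the sources used here. MAS5 scales each array as a whole, so shifts common to most transcripts are removed. Values were used as deposited. Of 18952 probe sets, 183 array controls were left out. Probe sets were named through the platform annotation and current RefSeq symbols (13646 had 1 symbol, 402 several and 4721 none).

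All 6 genotypes entered 1 limma fit (limma 3.58.1, R 4.3.3; intensity trend), with Benjamini-Hochberg adjustment over all 18769 probe sets and a threshold of 0.05. The fit was tested on simulated data. Changes were placed in TFAM o/e arrays, on probe sets with a mean log2 signal of at least 6. It called 28% of 1.5-fold, 60% of 2-fold, 94% of 4-fold and 100% of 8-fold changes (50 of each), so 1.5-fold changes were mostly missed. It also called 15 unchanged probe sets. The simulated noise was independent between probe sets and arrays, with no array like control replicate 3. The adjustment also depends on how many changes are placed, so these shares may not hold for the real arrays. Named are, for each comparison, the presynaptic probe sets with the smallest p, and in other presynaptic lists the 4 with the smallest p. The members and lists were chosen with earlier results of these data known. Results were recomputed, where an alternative could give them, after quantile normalization or median centring, on probe sets with a mean log2 signal of at least 6, with linear signals floored at 32, without the trend, from the compared arrays alone, with a replicate block, by the methods' t-test (1.5-fold threshold) and without each array in turn. The number of arrays limits the precision. With 3 arrays against 3, an exact two-sided permutation test of 1 probe set cannot go below p = 0.1.

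Whether equal replicate numbers pair arrays was checked by correlating deviations from genotype means over 8582 probe sets (a description across probe sets). All 3 correlations exceeded 0.1 only for TFAM o/e with Pnt RNAi, set against control (0.17, 0.27 and 0.23) or TFAM o/e alone (0.34, 0.18 and 0.43), a hint from the data and not from the labels.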

Additional observations from a re-analysis of the deposited data

How the results depend on the processing

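In the tests that each alternative could run, 0 presynaptic probe sets were called, with 132 tests under the filter on mean log2 signal, 165 with only the arrays compared, 135 by the methods' t-test and 180 under each of the others; the lowest adjusted p was 0.304 (limma, Rim 1623169_at, Aop RNAi against control, without control replicate 2). In the fit with a replicate block the lowest adjusted p was 0.388, and no call changed. It was 0.421 after quantile normalization, 0.639 after median centring, 0.651 with the floor of 32 and 0.68 by the methods' t-test. At the methods' unadjusted threshold with 1.5-fold, that t-test passed 1 of 15 in Aop RNAi against control (2.62% of all), 1 in TFAM o/e with Pnt RNAi against Pnt RNAi (3.29%), 1 in TFAM o/e with Aop RNAi against Aop RNAi (2.83%) and 0 in its other comparisons. With single arrays left out, the median log2 fold change ranged from -0.08 to 0.34 for TFAM o/e, 0.04 to 0.35 for Pnt RNAi, 0.09 to 0.51 for Aop RNAi, -0.08 to 0.35 for TFAM o/e with Pnt RNAi and -0.11 to 0.23 for TFAM o/e with Aop RNAi, each against control. Against TFAM o/e it ranged from -0.04 (without TFAM o/e with Pnt RNAi replicate 2) to 0.13 with Pnt RNAi and from -0.19 to 0.09 (without TFAM o/e replicate 1) with Aop RNAi, and in TFAM o/e with Pnt RNAi against Pnt RNAi from -0.25 to 0.06 (without TFAM o/e with Pnt RNAi replicate 1). For the interactions it ranged from -0.51 to -0.10 with Pnt RNAi and from -0.61 to -0.14 with Aop RNAi. The methods' t-test, with its own averaging, gave medians of -0.04 for TFAM o/e and -0.04 for TFAM o/e with Pnt RNAi against control. The precision was limited by 3 arrays a genotype, with pooled SDs of up to 0.60 among the main probe sets and 1.17 over all 15, and 4 of the 15 probe sets had a mean log2 signal under 6.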

Other observations

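The probe sets whose levels most resembled the mean of the 8 main presynaptic probe sets over the 18 arrays, among 7461 searched, were those of lap (Pearson r = 0.92), GluClalpha (0.91), babo (0.90), CG4168 (0.90) and Dhc64C (0.90). These correlations describe how the same 18 arrays varied, across genotypes and replicates together, and carry no test. lap, which belongs to the list of other vesicle and endocytosis genes, is an adaptor of clathrin-mediated endocytosis at synapses.

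The glia list differed little between genotypes, with means per array between 10.8 and 11.4, and the neuroblast list lay between 7.44 and 8.40. The fat body list spanned 8.83 to 12.2 and the salivary gland list 5.80 to 10.4 over the 18 arrays, and the testis and ring gland lists spanned 2.51 to 6.83 and 6.53 to 10.6.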
